A study of Mus musculus with 10 samples.

Results

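Liver RNA from mice given carbon tetrachloride (CCl4) was compared between 24 and 12 weeks, separately on a normal and on a Western diet. The comparison rests on 4 of the 10 libraries in the series, and each of the 4 is a pool of 4 mice: normal diet with CCl4 for 12 weeks, normal diet with CCl4 for 24 weeks, Western diet with CCl4 for 12 weeks and Western diet with CCl4 for 24 weeks. A gene was measured where its value reached 1 in at least 2 of the 10 libraries, which kept 12648 of 24062 genes. The 4 matching pools given the oil vehicle in place of CCl4, also 4 mice each, were used as a check of 12 further weeks without the toxin. The remaining 2 libraries, liver tumours of single mice, did not enter the fit. No combination of diet, treatment and duration had a second pool, so the 2 diets served as the repeats. A p-value here weighs a change against a spread taken from how far changes differed between the diets, under CCl4 and under oil. That spread was drawn towards a trend over all genes, with 2 residual and 5.88 prior degrees of freedom. It does not measure variation between mice or between pools of the same group. Strain, sex, age and CCl4 dose are not in the labels used here. The labels give 1 duration for diet and treatment together, so longer exposure, longer feeding and any greater age at collection cannot be told apart within the CCl4 pools.

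CCl4 is turned into a reactive radical by the cytochrome P450 enzyme Cyp2e1 in hepatocytes around the central vein, and those cells die. Repeated injury activates hepatic stellate cells, which become matrix-producing myofibroblasts and lay down scar collagen. Macrophages enter from the blood beside the resident Kupffer cells, and cells of the bile duct lineage can expand at the portal edge. Injured hepatocytes are known to lower many of the genes for drug metabolism and secreted proteins. Male mice express a set of liver genes, among them the major urinary proteins, under pulsatile growth hormone.

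Values are the deposited normalised read numbers, in which 1 read was worth 0.0287 to 0.0457 units depending on the library. Changes are differences of log2(value + 1), 24 minus 12 weeks, given as the mean of the 2 diets with the standard error of the fit, and the added 1 shrinks the changes of low genes. The CCl4 pools held 24368431 reads (normal diet) and 25532382 reads (Western diet) at 12 weeks, and 30137802 and 29491139 reads at 24 weeks. Both 24 week CCl4 pools were deeper than any other liver pool, and the part of depth in the results was not tested. Their median log2(value + 1) over measured genes was 4.088 and 4.107, against 4.053 to 4.087 in the other liver pools. All pools were liver by the albumin gene Alb, with 54802 to 114851 units. Markers of pancreas, gut and gallbladder, and red blood cells had 1, 2 and 1 measured members. With CCl4 the summed gut and gallbladder markers went from 0.517 to 1.07 on normal and from 0.845 to 4.02 on Western diet. Their oil pools held 0.148 to 0.183. The pancreas marker went from 8.43 to 9.35 and from 7.99 to 13.4 (oil 7.61 to 29.1). The red blood cell marker went from 116 to 87.1 and from 159 to 108 (oil 169 to 215). The part of these markers in the results was not tested. The one measured fat and muscle marker, the adipocyte protease gene Cfd, stood at 45.6 with normal diet and CCl4 at 12 weeks, at 5.40 with the same at 24 weeks and at 0 to 0.661 in the other liver pools, and its part in the results was not tested. In these bulk samples fewer cells of a type and less RNA per cell cannot be told apart.

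With CCl4, some genes of scar matrix, matrix remodelling, recruited macrophages, class II antigen presentation and bile duct cells were higher at 24 than at 12 weeks, and some male-biased, drug-metabolising and conjugating enzyme genes were lower. At a Benjamini-Hochberg adjusted p under 0.05 in limma, 212 genes changed, 1.68% of those measured: 121 rose (0.957%) and 91 fell (0.719%). All 212 changed in the same direction in both diets. The fit fixed this in advance, because the difference between diets enters the standard error. A gene with opposite directions in the 2 diets could not reach the threshold. Among them 82 rose and 26 fell by at least 2-fold on the log2(value + 1) scale. The median change over all 12648 genes was -0.0155. Without a test, 55 genes were at least 2-fold higher in both diets (0.435%) and 21 at least 2-fold lower (0.166%). In the oil pools 3 genes were at least 2-fold higher in both diets (0.0237%) and 0 lower.

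The count of 212 depends on which pools share the estimate of spread. It fell to 3 when any 1 of the 4 oil pools was left out or when only the CCl4 pools were fitted. It rose to 746 or 745 without the 12 or the 24 week pool of normal diet with CCl4, and to 331 or 325 without that of Western diet with CCl4, where the change comes from 1 diet and the spread from oil pools alone. The 3 genes called in every one of these fits were the serpin gene Serpina1e, the cytochrome P450 gene Cyp2c54 and the sulfotransferase gene 2810007J24Rik. Fits on the recovered reads gave 181 genes in edgeR, 175 of them among the 212, and 341 in DESeq2, 197 of them among the 212. None of the 76 called genes chosen by the rule for naming changed direction in any of these fits. Where pools were left out this could not happen, since those fits return the same mean change or that of 1 diet.

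**Figure D1:**
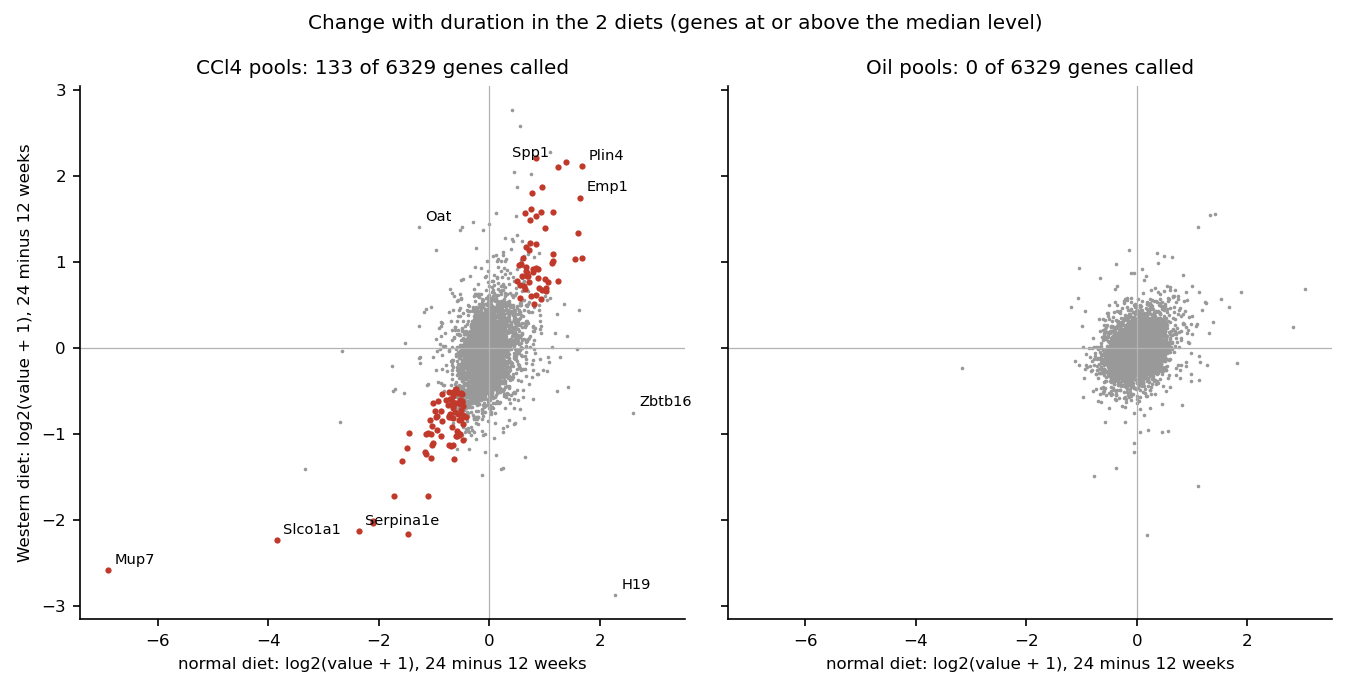
Change from 12 to 24 weeks as the difference in log2(value + 1) on normal diet (horizontal axis) and on Western diet (vertical axis), for the 6329 genes at or above the median level, 1 point per gene, CCl4 pools on the left and oil pools on the right. Red points are the 133 genes called under CCl4, and the oil panel has 0. All 133 have both changes above 0 or both below 0, which a call in this fit required.

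In oil pools the same 12 further weeks changed 0 genes in limma, with 1034 genes at an unadjusted p under 0.05 and a lowest adjusted p of 0.449, 0 genes in edgeR and 9 in DESeq2. The corresponding number under CCl4 at an unadjusted p under 0.05 was 2190. Fitted alone, the oil pools gave 101 genes. Without 1 of the CCl4 pools they gave 106 or 107, namely 106 without the 12 week normal diet or the 24 week Western diet pool, and 107 without the 24 week normal diet or the 12 week Western diet pool. The difference between the CCl4 and oil changes, tested in the same fit, was past the threshold for 7 genes (0.0553%). For the other called genes the change under CCl4 was therefore not shown to differ from that under oil. As a description, changes on the 2 diets were compared over the 6329 genes at or above the median level, which are not independent replicates. The Pearson correlation was 0.407 under CCl4 and 0.246 under oil. The rank (Spearman) correlation was 0.297 under CCl4 and 0.215 under oil. The pools of 1 diet and duration are separate libraries under CCl4 and oil.

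Scar matrix genes were higher at 24 weeks. Of 19 measured collagen genes, 7 rose and 0 fell, with a median change of 0.76. Col1a1 encodes the alpha 1 chain of type I collagen, the main fibre of scar (GRCm38 chr11:94936224-94953042). Its value went from 67.2 to 106 on normal diet and from 86.0 to 196 on Western diet. Both 24 week pools were above both 12 week pools. Oil pools stood at 4.92 and 5.90 with normal and at 33.2 and 28.8 with Western diet. The CCl4 change of Col1a1 was 0.92 ± 0.16 (adjusted p = 0.0388), and the oil change was 0.01. Col6a3, a chain of the beaded filament collagen VI around cells, went from 20.2 to 37.2 and from 26.0 to 77.0 and rose by 1.19 ± 0.18 (adjusted p = 0.0264). Col15a1, a collagen at the outer face of basement membranes, rose by 1.18 ± 0.21, and Col6a1 by 0.89 ± 0.13. The other 3 that rose were Col1a2, the partner chain of type I collagen, and Col4a1 and Col4a2, the chains of basement membrane collagen, by 0.76 to 0.78. In 16 of the 19 genes both 24 week pools lay above both 12 week pools, against 21.1% of all measured genes.

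Of 32 measured matrix glycoprotein, proteoglycan and crosslinker genes, 6 rose and 0 fell, with a median change of 0.64. Sparcl1, a secreted matrix-associated glycoprotein, stood at 9.82 and 31.7 on normal diet and at 21.0 and 55.0 on Western diet, at 12 and 24 weeks. It rose by 1.47 ± 0.15 (adjusted p = 0.00935), while oil pools held 4.35 to 15.8. Bgn, the small proteoglycan biglycan, went from 178 to 296 and from 161 to 378, a rise of 0.98 ± 0.13. Elastic fibre genes were among the 6: the elastin gene Eln rose by 1.08 ± 0.20, from 9.82 to 16.9 and from 10.1 to 29.2. Mfap4, a microfibril-associated protein of elastic fibres, rose by 1.12 ± 0.21, from 2.59 to 5.49 and from 3.99 to 12.1. The other 2 were Nid1, which links laminin to collagen in basement membranes, by 0.90 ± 0.11, and the keratan sulfate proteoglycan Lum, by 0.86 ± 0.13. For Lum the pools overlapped across diets, since Western diet at 12 weeks (51.3) exceeded normal diet at 24 weeks (45.1).

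Matrix is turned over by metalloproteinases and held back from turnover by their inhibitors, the TIMPs. Of 14 measured genes of both kinds 4 rose and 0 fell, with a median change of 0.81. Mmp7, matrilysin, which is made by epithelial cells in many tissues, went from 1.31 to 10.1 on normal diet and from 1.65 to 18.6 on Western diet. Its highest oil pool was 1.149, and the lowest CCl4 pool rested on 33 reads. The rise of 2.57 ± 0.26 (adjusted p = 0.008) was the largest among all called genes. Mmp12, the macrophage elastase, went from 16.3 to 49.8 and from 24.9 to 52.3 and rose by 1.30 ± 0.17 (adjusted p = 0.0208). On the inhibitor side Timp2 rose by 1.08 ± 0.12, from 22.0 to 50.1 and from 33.0 to 67.4, and Timp3, which binds to the matrix, rose by 0.93 ± 0.13. Timp1 stood at 2.19 and 4.13 on normal diet and at 0.922 and 4.05 on Western diet, and its difference of 1.04 ± 0.26 was not past the threshold (adjusted p = 0.0973).

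Promoter sequence is shown for Mmp7, Mmp12 and Emp1, 3 of the genes that rose, because each holds a match to the AP-1 element, the binding element of Fos and Jun proteins. They were chosen after their values were seen. Each run is the 150 bases before a RefSeq start in GRCm38.p6, 5′ to 3′ on the gene's strand, with matches to TGANTCA on either strand in capitals. The windows lie at chr9:7691940-7692089 (plus strand) for Mmp7, chr9:7347224-7347373 (plus strand) for Mmp12 and chr6:135362781-135362930 (plus strand) for Emp1. Each gene has 2 listed starts, and 1 of the 2 holds the match.
Mmp7: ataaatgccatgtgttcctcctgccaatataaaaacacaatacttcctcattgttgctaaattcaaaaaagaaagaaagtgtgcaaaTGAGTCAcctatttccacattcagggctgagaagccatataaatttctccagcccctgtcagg
Mmp12: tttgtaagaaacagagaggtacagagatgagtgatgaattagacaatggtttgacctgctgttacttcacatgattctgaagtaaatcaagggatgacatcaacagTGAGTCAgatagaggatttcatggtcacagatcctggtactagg
Emp1: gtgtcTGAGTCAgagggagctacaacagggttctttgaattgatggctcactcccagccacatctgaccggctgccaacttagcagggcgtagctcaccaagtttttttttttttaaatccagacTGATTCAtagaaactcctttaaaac
The matches begin 63 bases before the Mmp7 start, 44 before the Mmp12 start, and 145 and 25 before the Emp1 start. Among the 121 genes that rose, 86 had a promoter in the table and 9 of them held TGANTCA in a window (10.5%), against 4 of 66 among those that fell (6.06%) and 362 of 9574 among all measured genes (3.78%). Over all 32851 windows of this length the share was 4.24%. The genes differ in how many starts are listed, and a match is a stretch of letters, not a measured site.

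Stellate cells and the myofibroblasts they give rise to were represented by 18 measured markers, of which 4 rose and 0 fell, with a median change of 0.36. Cygb, cytoglobin, a globin of stellate cells, went from 16.2 to 32.5 and from 12.3 to 47.8 and rose by 1.42 ± 0.21 (adjusted p = 0.0287). The receptor genes for platelet-derived growth factor, a mitogen of these cells, also rose: Pdgfra by 1.35 ± 0.18, from 9.07 to 25.5 and from 10.02 to 26.1, and Pdgfrb by 0.80 ± 0.15. The intermediate filament gene Vim rose by 0.66 ± 0.12. Acta2, the smooth muscle actin that marks contractile myofibroblasts, stood at 6.28 and 6.53 on normal diet and at 3.34 and 5.89 on Western diet. Its pools overlapped and its difference was 0.36 ± 0.25 (adjusted p = 0.517). The summed level of the measured markers was 432 and 399 at 12 weeks and 562 and 549 at 24 weeks, normal diet first, against 274 to 354 in oil pools.

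Genes that hold, release or answer the fibrogenic cytokine TGF-beta numbered 25, of which 1 rose and 0 fell, with a median change of 0.40. The one called was Ltbp2, a latent TGF-beta binding protein family member of elastic fibres, which rose by 1.56 ± 0.21 from 2.59 to 7.99 and from 5.18 to 20.4. Adamtsl2, a secreted protein known to bind such a binding protein, rose by 1.78 ± 0.20 (adjusted p = 0.0139), from 12.4 to 34.1 and from 8.91 to 43.5. Gsn, an actin-severing protein, rose by 1.36 ± 0.18 and the membrane protein gene Emp1 by 1.70 ± 0.15, the latter from 7.80 to 26.5 and from 11.02 to 39.5. Of 19 measured targets of the Hippo pathway factor YAP 3 rose and 0 fell, with a median change of 0.42. They were the membrane repair gene Myof (1.01 ± 0.18), the stress gene Gadd45b (0.97 ± 0.18) and Tead1, the DNA-binding partner of YAP (0.75 ± 0.14). Among 18 measured annexin and S100 genes 2 rose and 0 fell, with a median change of 0.35. Anxa2 went from 101 to 159.8 and from 43.3 to 131, a rise of 1.11 ± 0.20, and the epithelial annexin gene Anxa13 rose by 1.42 ± 0.19.

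**Figure D2:**
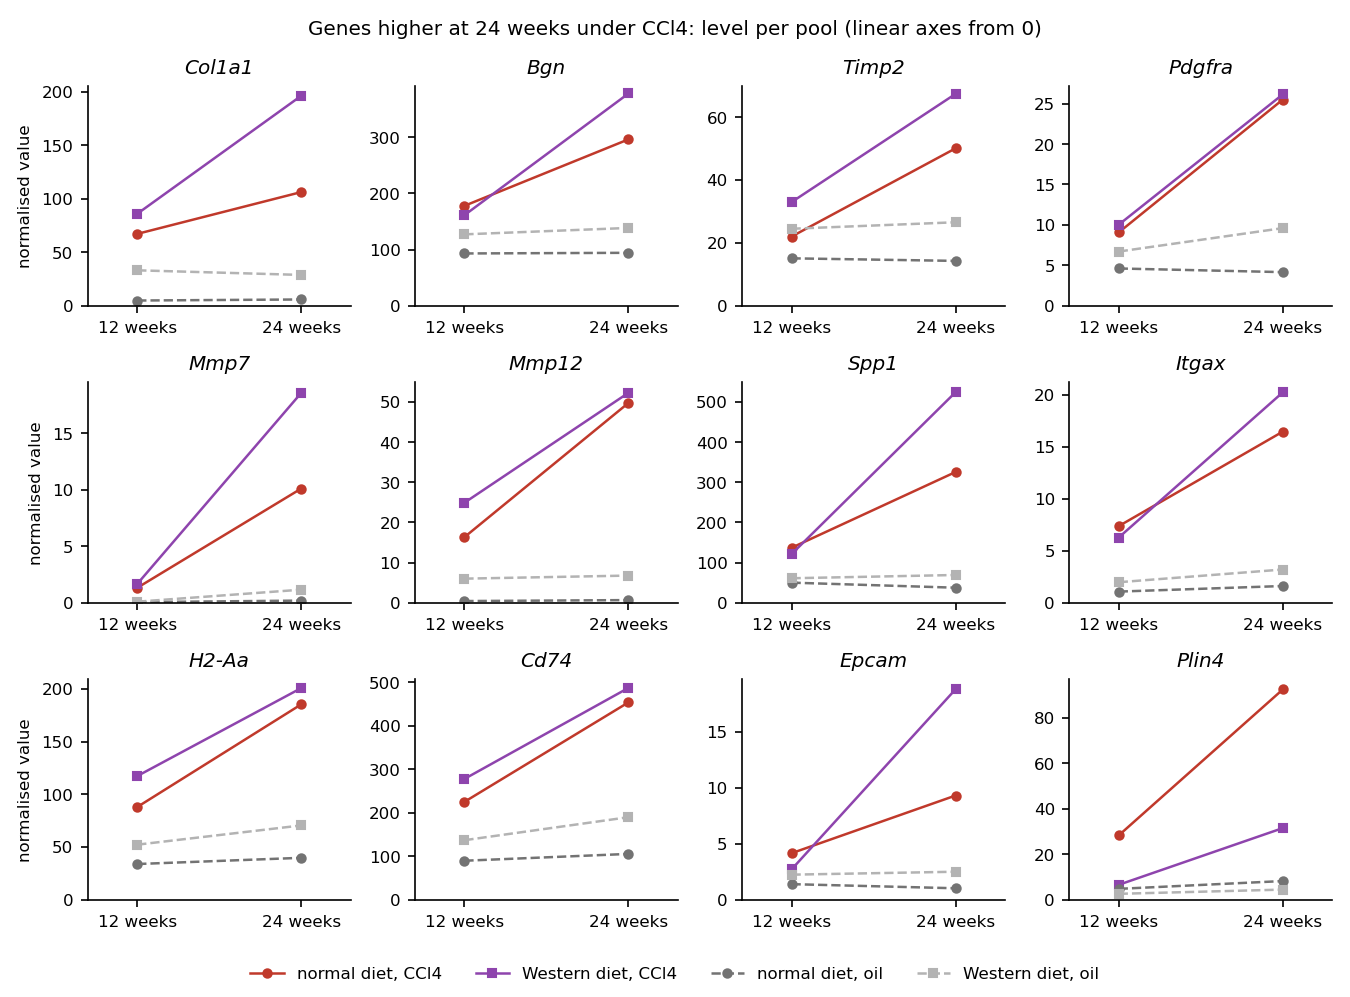
Normalised value in each liver pool at 12 and 24 weeks for 12 genes that rose under CCl4, on linear axes from 0, with red circles for normal diet with CCl4, purple squares for Western diet with CCl4 and dashed grey lines for the oil pools; each point is 1 pool of 4 mice and there are no error bars. Both CCl4 lines climb in every panel, for example from 137 to 325 and from 121 to 524 for Spp1.

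Macrophage genes are given in a list for recruited and lipid-associated cells and a list for resident Kupffer cells, which share Cd5l. Of 20 measured markers of recruited and lipid-associated macrophages 5 rose and 0 fell, with a median change of 0.74. The median was 0.935 on normal and 0.481 on Western diet, with 3 and 6 of the 20 below 0. Spp1, osteopontin, which is made by such macrophages and by bile duct cells, went from 137 to 325 on normal diet and from 121 to 524 on Western diet. Oil pools held 37.3 to 68.9, and the rise was 1.68 ± 0.21 (adjusted p = 0.0177). Itgax, the integrin CD11c, rose by 1.30 ± 0.19, from 7.36 to 16.4 and from 6.26 to 20.2. The fractalkine receptor gene Cx3cr1 rose by 1.22 ± 0.20, from 5.25 to 12.0 and from 5.91 to 17.0. Its ligand Cx3cl1, the single called gene of 25 measured chemokine and receptor genes (median change 0.21), rose by 1.40 ± 0.23, from 3.30 to 7.90 and from 2.84 to 12.0. Besides Mmp12, the fifth was the tetraspanin gene Cd9 (0.68 ± 0.11). Gas6, a bridging ligand by which phagocytes bind dying cells, went from 89.7 to 154 and from 48.3 to 171 and rose by 1.29 ± 0.21.

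The lipid-associated markers Gpnmb and Trem2 were not past the threshold. Gpnmb, a glycoprotein of lysosome-rich macrophages, stood at 32.3 and 98.4 on normal diet but at 121 and 120.3 on Western diet, a difference of 0.78 ± 0.31 (adjusted p = 0.251). The lipid receptor gene Trem2 stood at 6.32 and 18.2 on normal diet and at 15.7 and 22.1 on Western diet (0.93 ± 0.25, adjusted p = 0.115). On both genes the Western diet pool at 12 weeks was already higher than the normal diet pool of that time.

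None of 18 measured markers of resident Kupffer cells was past the threshold in either direction, and the median change was -0.17. On normal diet 13 of the 18 were above 0 with a median change of 0.21, and on Western diet 16 were below 0 with a median of -0.39. Signs per diet were not counted over all measured genes, for this or any other list. The split was not particular to this list. Of 29 ribosomal protein genes, 25 were above 0 on normal and 29 below 0 on Western diet, and of 30 endothelial markers 26 and 23. Interferon-stimulated genes split the other way. The scavenger receptor gene Marco stood at 18.2 and 6.47 on normal diet and at 37.4 and 1.61 on Western diet. In oil pools it stood at 10.8 and 34.6 and at 22.7 and 32.4, the opposite order. Its CCl4 difference was -2.62 ± 0.51 (adjusted p = 0.0518), and the difference between CCl4 and oil had an adjusted p of 0.223. Timd4, the phosphatidylserine receptor of long-lived Kupffer cells, stood at 5.25 and 2.49 and at 7.30 and 0.862 (-1.50 ± 0.30, adjusted p = 0.0563). The lectin gene Clec4f, which is largely confined to Kupffer cells, stood at 121 and 118 on normal diet and at 159 and 88.3 on Western diet (adjusted p = 0.273). Cd5l, a secreted macrophage protein, stood at 198 and 272 and at 382 and 209. The summed level of the measured markers went from 1077 to 1307 on normal diet and from 1638 to 1203 on Western diet.

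Class II molecules present peptides to helper T cells and are made by macrophages, dendritic cells and B cells. Of 9 measured class II presentation genes 4 rose and 0 fell, with a median change of 0.68. H2-Eb1, a beta chain, went from 73.0 to 161 and from 89.2 to 178 and rose by 1.06 ± 0.13 (adjusted p = 0.0166). The alpha chain gene H2-Aa went from 87.8 to 185 and from 117 to 201, a rise of 0.92 ± 0.12. Cd74, the chaperone that fills the groove before peptide is loaded, went from 225 to 453 and from 277 to 487 and rose by 0.91 ± 0.11. H2-Ab1, the other beta chain, rose by 0.84 ± 0.12. For all 4 genes both 24 week CCl4 pools were the highest of the 8 liver pools. In oil pools the list median was 0.232 on normal and 0.316 on Western diet, and the 4 genes changed by 0.21 to 0.35. The limma test of the difference between CCl4 and oil gave adjusted p-values of 0.237 to 0.348 for the 4.

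The promoters of H2-Aa and H2-Eb1 are shown because these genes moved together. Class II promoters are known to carry a CCAAT element beside the X boxes, and here matches to CCAAT on either strand are in capitals (the reverse strand reads ATTGG). Each run is the 150 bases before the RefSeq start in GRCm38.p6, 5′ to 3′ on the gene's strand, at chr17:34287824-34287973 (minus strand) for H2-Aa and chr17:34305717-34305866 (plus strand) for H2-Eb1.
H2-Aa: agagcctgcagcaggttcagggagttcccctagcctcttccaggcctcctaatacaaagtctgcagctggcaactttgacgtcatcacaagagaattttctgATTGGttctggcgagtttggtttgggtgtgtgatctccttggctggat
H2-Eb1: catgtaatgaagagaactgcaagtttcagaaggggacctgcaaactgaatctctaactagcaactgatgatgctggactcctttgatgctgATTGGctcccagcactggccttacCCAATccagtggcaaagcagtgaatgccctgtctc
The match begins 48 bases before the start in H2-Aa, and the 2 matches in H2-Eb1 begin 59 and 35 bases before it. A CCAAT match was common, in 24.5% of the 32851 windows of this length. It was found in 24 of 86 genes that rose (27.9%), in 30 of 66 that fell (45.5%) and in 3031 of 9574 measured genes with a promoter (31.7%).

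Other immune lists gave few or no calls. None of 12 T and NK cell, 7 B and plasma cell and 9 dendritic cell markers measured was past the threshold, with median changes of 0.08, -0.05 and 0.22. Of 5 measured neutrophil markers 1 rose, the integrin gene Itgam, which macrophages also make, by 1.12 ± 0.21. The summed T and NK cell markers were 20.0 and 20.5 with normal and 25.2 and 23.9 with Western diet. Of 22 measured acute phase genes 1 rose, Lcn2, a siderophore-binding lipocalin, from 69.6 to 126 and from 35.6 to 168 (1.53 ± 0.27, adjusted p = 0.0404). Lcn2 was also higher at 24 weeks in oil pools, from 4.13 to 12.6 and from 3.97 to 13.6, a change of 1.48, and the difference between CCl4 and oil had an adjusted p of 0.973. None of 16 measured inflammatory cytokine and NF-kB genes was past the threshold, with a median change of 0.41.

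Interferon-stimulated genes were lower at 24 weeks on normal diet and mostly higher on Western diet. Of 28 measured, 0 were past the threshold and the median change was -0.24. On normal diet 27 were below 0, with a median of -0.74 and a range of -1.68 to 0.155. On Western diet 22 were above 0, with a median of 0.20 and a range of -0.242 to 0.829. Bst2, tetherin, which holds budding virus at the cell surface, stood at 289 and 200.1 on normal diet and at 239 and 202 on Western diet. Summed over the list, the level was 1086 with normal diet and CCl4 at 12 weeks but 651 to 718 in the other 3 CCl4 pools and 498 to 593 in oil pools, so that 1 pool stood apart. The 13 measured class I and immunoproteasome genes had medians of -0.36 on normal and 0.10 on Western diet, with 0 past the threshold. The difference between diets was not tested.

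Bile duct and progenitor markers had the highest median change of the lists with at least 5 measured members, 1.06, with 5 of 21 called higher and 0 lower. On normal diet the median was 0.57 and on Western diet 1.58, while in oil pools it was -0.12 and 0.07. The epithelial adhesion gene Epcam went from 4.14 to 9.29 on normal diet and from 2.69 to 18.8 on Western diet. Oil pools held 1.01 to 2.48, and the rise was 1.71 ± 0.31 (adjusted p = 0.0427). The tetraspanin gene Tspan8 went from 5.05 to 13.03 and from 2.69 to 16.3 and rose by 1.72 ± 0.25. Anxa13, Spp1 and Cd24a, a surface glycoprotein of progenitor and many other cells, were the remaining 3. Cd24a rose by 1.22 ± 0.19, from 7.32 to 14.7 and from 6.99 to 22.1. Summed over the list, the level went from 1057 to 1296 and from 640 to 1491, with 564 to 625 in oil pools.

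Among 26 measured fetal liver and liver cancer markers 4 rose and 0 fell, with a median change of 0.37. Of the 4, Epcam, Cd24a and Lcn2 also stand in other lists. The fourth was Pkm, the glycolytic pyruvate kinase of non-hepatocyte and fetal cells, which rose by 0.75 ± 0.13 from 33.0 to 63.9 and from 41.5 to 62.0 and was the single call among 23 glycolysis genes (median 0.07). Other oncofetal genes were not past the threshold. Afp, alpha-fetoprotein, stood at 2.55 and 1.75 and at 11.4 and 3.48 (adjusted p = 0.153), and the glypican gene Gpc3 at 1.67 and 1.31 and at 8.76 and 5.23 (adjusted p = 0.41).

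Plin4, a perilipin that coats lipid droplets, was the single call among 24 measured lipid droplet, lipolysis and uptake genes, whose median change was 0.26. Its value went from 28.2 to 92.5 on normal diet and from 6.49 to 31.5 on Western diet. Its oil pools went from 4.70 to 8.14 and from 2.52 to 4.37, and the CCl4 change was 1.90 ± 0.16 (adjusted p = 0.00505). None of 27 measured lipogenesis and triglyceride synthesis genes was past the threshold (median -0.01). Cyp4a14, a fatty acid hydroxylase and a target of the fatty acid receptor PPAR-alpha, was the single call among 32 genes of that list, whose median was -0.07. Gpx3, the secreted glutathione peroxidase, rose by 1.36 ± 0.18, from 8.63 to 29.6 and from 21.7 to 45.8.

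Female-biased liver genes gave 3 rises and 0 falls among 19 measured, with a median change of 0.33. Cyp17a1, a steroid hydroxylase, went from 20.6 to 40.4 and from 14.2 to 44.6 and rose by 1.26 ± 0.17 (adjusted p = 0.0229). It was higher at 24 weeks in oil pools too, from 7.36 to 13.9 and from 2.91 to 6.04. The flavin monooxygenase gene Fmo2 rose by 1.12 ± 0.19 and the transporter gene Slc22a27 by 1.38 ± 0.26, the latter from 5.53 to 12.1 and from 1.04 to 5.92.

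The largest falls lay among major urinary protein and other male-biased genes, of which 31 were measured, 0 rose and 7 fell. The median change was -0.75, at -1.45 on normal and -0.50 on Western diet. On normal diet 1 gene was above 0, with a range of -6.9 to 0.0174. On Western diet 7 were above 0, with a range of -2.58 to 6.27, so at least 1 member was far higher there without being called. Mup7, a urinary pheromone-binding lipocalin, went from 531 to 3.44 on normal diet and from 18.8 to 2.30 on Western diet, a change of -4.74 ± 0.88 (adjusted p = 0.0467). In oil pools Mup7 stood at 1962 and 2233 on normal diet and at 609 and 134 on Western diet. The normal diet CCl4 pool thus still held 531 units at 12 weeks, while the Western diet CCl4 pool was already low. Mup3 went from 3291 to 989 and from 4477 to 1355, a change of -1.73 ± 0.17 that was alike in the 2 diets (-1.73 and -1.72). Genes of the Mup cluster are close copies, so reads could be split among them and the identity of the member is uncertain.

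Hsd3b5, a steroid-metabolising enzyme of male liver, went from 26.2 to 0.0297 on normal diet, the latter 1 read, and from 2.92 to 0.230 on Western diet. Its oil pools stood at 290.0 and 207 and at 30.8 and 8.16, and its CCl4 change on the log2(value + 1) scale was -3.20 ± 0.61 (adjusted p = 0.0482). The steroid hydroxylase gene Cyp2d9 went from 686 to 318 and from 951 to 288 (-1.41 ± 0.16). Keg1, an acyltransferase-like gene of kidney and liver, went from 124 to 44.6 and from 136 to 68.3 (-1.22 ± 0.14). Elovl3, a fatty acid elongase with male-biased expression, stood at 86.2 and 61.1 and at 23.5 and 11.1 and was not past the threshold (-0.75 ± 0.15, adjusted p = 0.0555). Igfals, which holds IGF1 in the circulation in answer to growth hormone, was the single call among 21 growth hormone and IGF axis genes, whose median change was -0.215. It went from 78.0 to 36.6 and from 73.0 to 40.5 (-0.95 ± 0.11).

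The serpin gene Serpina1e, one of the alpha-1-antitrypsin copies of the mouse (chr12:103946931-103958975), stood at 567 and 109 on normal diet and at 262 and 58.9 on Western diet with CCl4. Oil pools stood at 11691 and 12653 and at 2821 and 2427, so the gene was already far below oil at 12 weeks and lower still at 24. The CCl4 change was -2.25 ± 0.13 (adjusted p = 0.000921), with -2.36 on normal and -2.13 on Western diet. The Serpina1 copies are nearly identical, so the share of this copy is uncertain.

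Drug-metabolising cytochromes P450 gave 1 rise and 7 falls among 34 measured genes, with a median change of -0.31. Cyp2c54 went from 106 to 24.0 on normal diet and from 100.05 to 23.6 on Western diet (chr19:40037940-40073827). Its oil pools held 326 to 417. The change of -2.07 ± 0.13 (adjusted p = 0.000921) was -2.10 and -2.04 in the 2 diets. Cyp2c37 went from 224 to 101 and from 65.3 to 27.2 (-1.19 ± 0.10, adjusted p = 0.00505), with pools overlapping across diets. The caffeine-metabolising enzyme gene Cyp1a2, of the central vein region, went from 249.8 to 123 and from 262 to 121 (-1.06 ± 0.11). Cyp2c70, which makes the muricholic acids of mouse bile, went from 413 to 262 and from 464 to 263 (-0.73 ± 0.10). The remaining 2 besides Cyp2d9 were Cyp2c50 (-1.17 ± 0.11) and Cyp2c44 (-0.77 ± 0.11). Members of the Cyp2c and Cyp2d clusters are close copies, so their values may share reads. The one rise was Cyp1b1, an enzyme of mesenchymal cells, from 1.63 to 6.38 and from 1.31 to 8.65 (1.78 ± 0.22).

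Cyp2e1 itself, which activates CCl4, stood at 6858 and 4867 on normal diet and at 5042 and 4067 on Western diet. It was lower at 24 weeks in both diets, with a difference of -0.40 ± 0.17 that was not past the threshold (adjusted p = 0.291). Oil pools held 5158 to 6614.

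Conjugating enzymes, which attach sulfate or glucuronic acid to drugs, steroids and bile acids, gave 0 rises and 4 falls among 25 measured genes, with a median change of -0.35. In 22 of the 25 the change was below 0 in both diets, a sign count not made over all measured genes. In 17 both 24 week pools lay below both 12 week pools, against 25.1% of all measured genes. In 2 they lay above, against 21.1%. Foremost by its p was 2810007J24Rik, whose newer symbol is Sult2a8, a bile acid sulfotransferase. It went from 402 to 92.8 and from 633 to 156, against 917 to 984 in oil pools. The change was -2.06 ± 0.10 with the lowest adjusted p of the comparison, 0.000659. The glucuronosyltransferase genes Ugt2b1 and Ugt2a3 fell, Ugt2b1 from 601 to 306 and from 504 to 289 (-0.89 ± 0.11) and Ugt2a3 from 226 to 131 and from 207 to 136 (-0.69 ± 0.10). Sult5a1, a sulfotransferase of low level, went from 6.44 to 1.93 and from 2.65 to 1.12 (-1.06 ± 0.19). Ces3b, a carboxylesterase outside the list, went from 237 to 78.1 and from 291 to 116 (-1.45 ± 0.11, adjusted p = 0.00301).

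Bile salts and organic anions are taken up from blood by transporters on the sinusoidal face of hepatocytes, and genes of 2 such transporters fell. Slco1a1, an organic anion transporter with male-biased expression, went from 180.2 to 11.6 on normal diet and from 39.3 to 7.53 on Western diet (-3.04 ± 0.35, adjusted p = 0.0139). In oil pools it stood at 593 and 455 and at 209 and 78.4, a difference of -0.89. Slc10a1, the sodium-dependent bile salt carrier, went from 396 to 182 and from 490.1 to 247 (-1.05 ± 0.10, adjusted p = 0.00663), with 527 to 628 in oil pools. With Cyp2c70 these were the 3 falls, beside 0 rises, among 24 measured LXR target and bile acid genes, whose median change was -0.22.

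**Figure D3:**
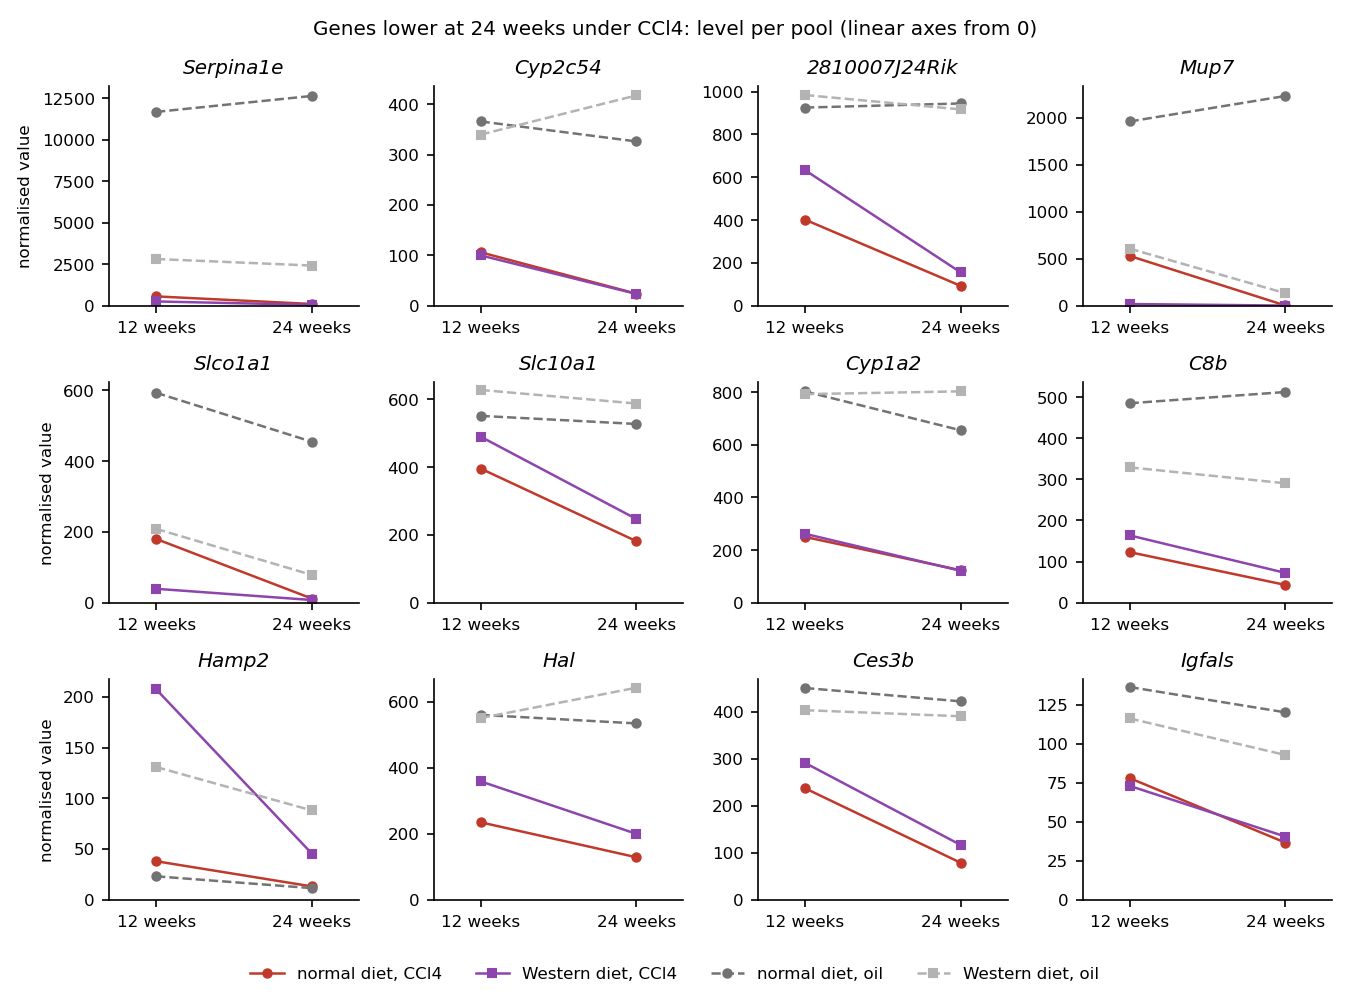
Normalised value in each liver pool at 12 and 24 weeks for 12 genes that fell under CCl4, on linear axes from 0, with red circles for normal diet with CCl4, purple squares for Western diet with CCl4 and dashed grey lines for the oil pools; each point is 1 pool of 4 mice and there are no error bars. Both CCl4 lines drop in every panel, for example from 396 to 182 and from 490.1 to 247 for Slc10a1.

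Secreted blood proteins gave 2 falls and 0 rises among 38 measured complement and coagulation genes, with a median change of -0.32. C8b, a chain of the terminal complement complex, went from 123 to 43.2 and from 164 to 72.4 (-1.33 ± 0.12, adjusted p = 0.00663), against 290.3 to 512 in oil pools. The clotting factor VII gene F7 went from 67.1 to 43.7 and from 81.2 to 51.7 (-0.62 ± 0.10). Of the 38 genes, 26 had both 24 week pools below both 12 week pools, against 25.1% of all measured genes. Hamp2, a hepcidin paralog, was the single call among 18 metallothionein, hepcidin and iron genes (median 0.02). It went from 37.8 to 12.97 on normal diet and from 208 to 45.4 on Western diet (-1.82 ± 0.18). The pools overlapped across diets, since Western diet at 24 weeks (45.4) exceeded normal diet at 12 weeks (37.8). Oil pools of Hamp2 went from 22.9 to 11.3 and from 131 to 87.9.

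None of 32 measured hepatocyte identity genes was past the threshold, with a median change of -0.32 and a range of -1.16 to 0.06. In 28 of the 32 the change was below 0 in both diets, and in 26 both 24 week pools lay below both 12 week pools, against 25.1% of all measured genes. Alb stood at 68362 and 58739 on normal diet and at 84121 and 54802 on Western diet (adjusted p = 0.644). The transferrin gene Trf stood at 15995 and 18083 and at 15744 and 15173. The summed level of the list went from 130829 to 116363 and from 153499 to 108609.

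Zones of the lobule were compared through lists of genes known to be high around the central or the portal vein. Of 25 measured pericentral genes 3 fell and 0 rose, with medians of -0.495 on normal and 0.01 on Western diet. Besides Cyp1a2 they were the carbonic anhydrase gene Car3, from 2143 to 1161 and from 2271 to 1370.0 (-0.81 ± 0.14), and the calcium-binding lactonase gene Rgn, from 1165 to 727 and from 1066 to 676 (-0.67 ± 0.11). Of 27 measured periportal and urea cycle genes 2 fell and 0 rose, with medians of -0.14 and -0.53. Hal, which starts histidine breakdown, went from 235 to 128 and from 359 to 199 (-0.85 ± 0.11, adjusted p = 0.0203). Agxt, a glyoxylate-detoxifying aminotransferase, went from 155 to 96.2 and from 217 to 142 (-0.65 ± 0.10). Called falls were therefore present in both zone lists.

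Among 26 measured cholesterol synthesis and SREBP2 target genes 2 fell and 0 rose, with a median change of -0.145. They were Tm7sf2, a sterol reductase (-0.76 ± 0.10, from 48.8 to 29.1 and from 60.2 to 34.3), and the sterol carrier gene Stard4 (-0.61 ± 0.10). Sqle, squalene epoxidase, was low at both times under CCl4, at 8.11 and 6.86 and at 21.4 and 21.3, against 106 to 151 in oil pools (adjusted p = 0.711). None of 26 measured nuclear genes of the respiratory chain was past the threshold, with a median change of -0.22. All 26 were below 0 in both diets, and for all 26 both 24 week pools lay below both 12 week pools, against 25.1% of all measured genes. Single changes were small, from -0.42 to -0.11. The 25 methionine and one-carbon genes had 0 called and a median of -0.25, and the 29 cytosolic ribosomal protein genes had 0 called. Of these 29, 25 were above 0 on normal diet (median 0.105) and 29 below 0 on Western diet (median -0.28).

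Growth, stress and clock genes gave few calls. None of 44 measured cell cycle and mitosis genes was past the threshold, with medians of 0.07 on normal and 0.51 on Western diet. The proliferation marker Mki67 stood at 8.27 and 10.7 and at 5.38 and 9.91 (adjusted p = 0.422). Ccnd1, the G1 cyclin, stood at 143 and 97.9 on normal diet and at 48.1 and 126 on Western diet. Of 25 p53 target and senescence genes 1 rose, Gadd45b. Of the 25, 20 were above 0 on normal diet (median 0.185) and 19 below 0 on Western diet (median -0.183). The cell cycle inhibitor gene Cdkn1a stood at 30.6 and 66.1 and at 76.9 and 68.8 (adjusted p = 0.515). None of the 26 integrated and ER stress, 14 heat shock, 18 immediate early and 30 NRF2 target and glutathione genes measured was past the threshold, with medians of -0.16, -0.28, 0.15 and 0.04. The immediate early median was -0.0937 on normal and 0.337 on Western diet. None of 19 core clock genes was past it either (median -0.14), and of 23 clock output genes 1 fell, the uridine phosphorylase gene Upp2 (-0.79 ± 0.15), with a list median of -0.09. Dbp, a clock output factor whose level depends on the hour of collection, stood at 63.6 and 42.2 and at 62.4 and 50.1 in CCl4 pools, and at 1.46 and 2.10 in normal diet and 55.9 and 38.4 in Western diet oil pools. Of 20 glucocorticoid and fasting genes 1 rose, Lcn2. Their medians had opposite signs, 0.471 on normal diet with 15 above 0 and -0.164 on Western diet with 15 below 0.

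**Figure D4:**
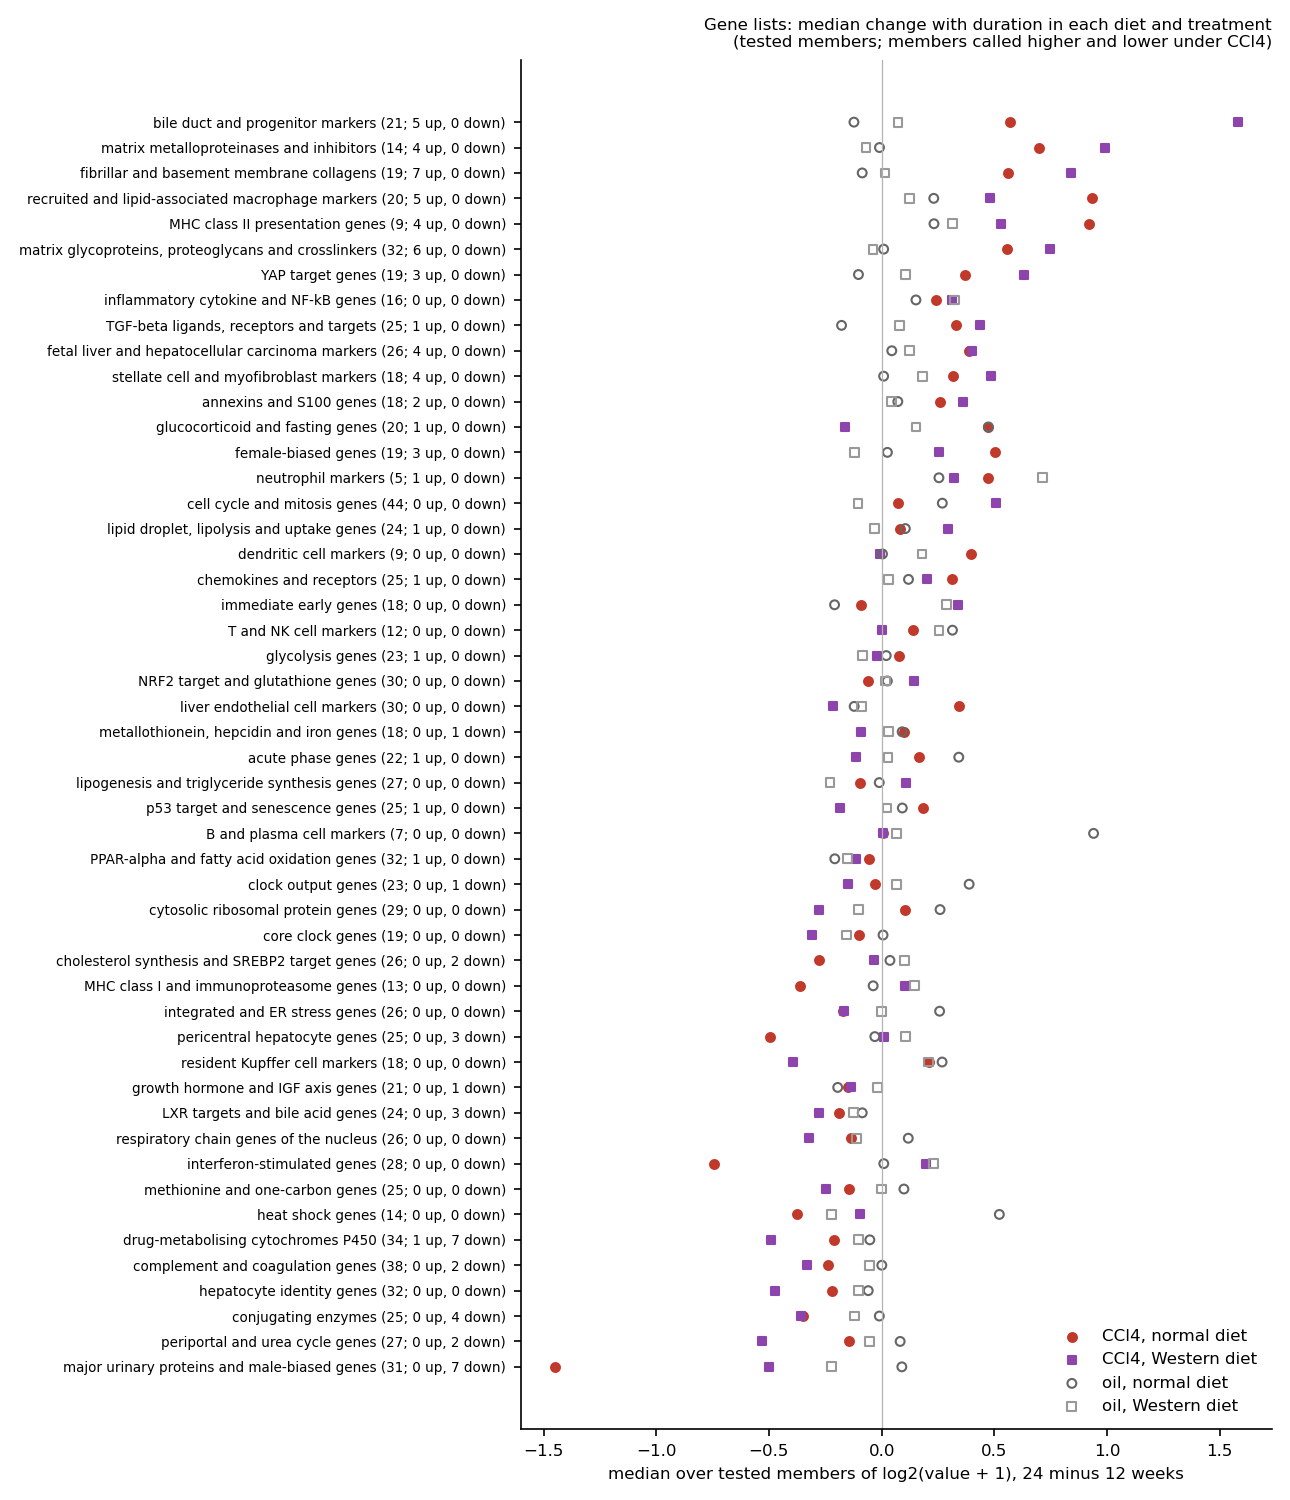
Median change in log2(value + 1) from 12 to 24 weeks over the measured members of each list (horizontal axis), 1 row per list with at least 5 measured members, with filled red circles and purple squares for CCl4 on normal and Western diet and open symbols for oil. Row labels give the measured members and those called higher and lower under CCl4. Bile duct markers reach 0.569 and 1.58, and the male-biased list -1.45 and -0.499.

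For 7 genes the change under CCl4 differed from that under oil by the test of the difference, 0.0553% of measured genes, 2 with a higher (0.0158%) and 5 with a lower change (0.0395%). Serpina1e (-2.195, adjusted p = 0.0119), Cyp2c54 (-2.135, adjusted p = 0.0119) and 2810007J24Rik (-2.02, adjusted p = 0.0108) had the most negative differences. Their oil changes were -0.05, 0.07 and -0.04. Ces3b differed by -1.38 and Cyp2c37 by -1.28 (adjusted p = 0.046 for both). In the other direction Lamc3, a laminin gamma chain, went from 3.82 to 14.6 and from 3.26 to 18.7 with CCl4. In oil pools it stood at 2.17 and 1.42 and at 4.36 and 3.37, and the difference was 2.30 (adjusted p = 0.0483). Cyp4a14 went from 306 to 551 and from 240.1 to 370.3 with CCl4 but stood at 193 and 129 and at 312 and 172 in oil pools, a difference of 1.45 (adjusted p = 0.0463). The count of 7 became 0 without any 1 oil pool, 378 or 373 without the 12 or the 24 week normal diet CCl4 pool, and 168 or 166 without the Western diet CCl4 pools. It was 3 in edgeR and 70 in DESeq2.

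**Figure D5:**
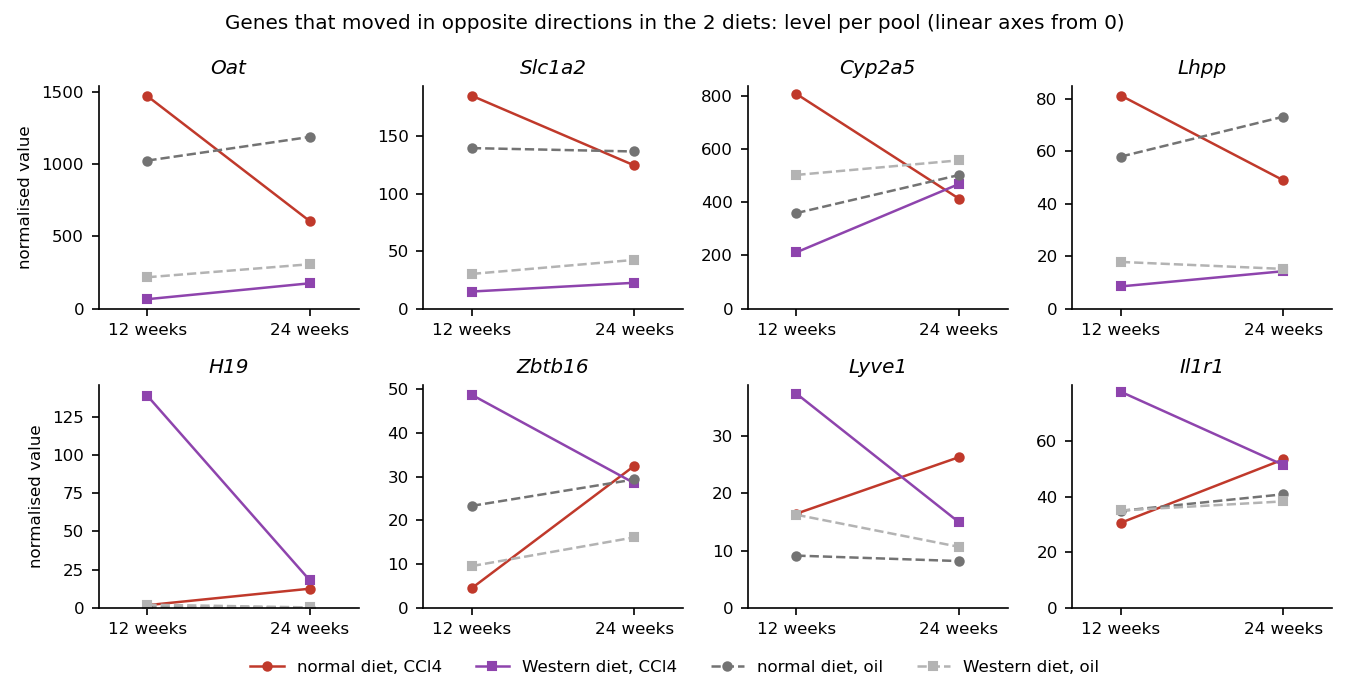
Normalised value in each liver pool at 12 and 24 weeks for 8 genes whose CCl4 change had opposite signs in the 2 diets, on linear axes from 0, with red circles for normal diet with CCl4, purple squares for Western diet with CCl4 and dashed grey lines for the oil pools; each point is 1 pool of 4 mice. The upper row drops on normal and climbs on Western diet, as Oat does from 1469 to 605 and from 65.6 to 175, and the lower row does the reverse.

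Some genes moved in opposite directions on the 2 diets. They are described without a test of the difference between diets, and their mean change over the diets hides it. Oat, ornithine aminotransferase of the central vein region, stood at 1469 and 605 on normal diet and at 65.6 and 175 on Western diet. Slc1a2, a glutamate transporter of the same hepatocytes, stood at 185 and 125 and at 14.9 and 22.5, and Lhpp, a phosphatase, at 81.3 and 49.0 and at 8.49 and 14.3. Cyp2a5, a coumarin hydroxylase, stood at 807 and 414 and at 212 and 468. For all 4 genes the normal diet CCl4 pool was far above the Western diet pool at 12 weeks. The 12 week oil pools had the same order for Oat (1024 and 217), Slc1a2 (140 and 30.2) and Lhpp (58.0 and 17.8). Cyp2a5 had the reverse order there (359 and 503). Among the CCl4 pools at 12 weeks the converse order was seen for H19, an imprinted fetal RNA. It stood at 1.79 and 12.6 on normal diet and at 139 and 18.04 on Western diet, while oil pools held 0.229 to 2.09. Lyve1, a hyaluronan receptor of sinusoidal endothelium, stood at 16.5 and 26.3 and at 37.4 and 15.0. The 30 measured endothelial markers had 0 called, with 26 above 0 on normal diet (median 0.345) and 23 below 0 on Western diet (median -0.22). The glucocorticoid-inducible factor gene Zbtb16 stood at 4.53 and 32.5 and at 48.7 and 28.5. At a 2-fold change in both diets such genes were few. Among genes at or above the median level, 28 had the same and 2 the opposite direction at that size under CCl4. Under oil these counts were 3 and 1. Smaller opposite changes are in neither count, and some lists largely split by diet, such as the interferon-stimulated, ribosomal protein and endothelial genes.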

How the data were processed

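RNA of flash-frozen liver was sequenced after poly-A selection, per the labels' protocols, and the submitters' processing notes name STAR and mm10 without versions. The sources used here give neither counter nor annotation nor scaling. Per the file headers the authors deposited normalised values, a signal per gene and library. Dividing by 1 constant per library gave whole reads (largest distance 0.00092 reads), 23206229 to 30137802 per library. Changes were computed here as log2(value + 1) of the deposited signal, over genes with at least 1 in 2 of 10 libraries. The 8 liver pools were fitted by limma 3.58.1 under R 4.3.3 (lmFit, then eBayes with a variance trend, two-sided) with 1 mean per diet and treatment and separate duration terms for CCl4 and oil, leaving 2 residual degrees of freedom. Benjamini-Hochberg adjustment ran over 12648 genes, and the threshold was 0.05. edgeR 4.0.16 and DESeq2 1.42.0 on recovered reads, other filters, scalings and fits, and leaving out each pool were alternatives. The fit was tested on simulated data.

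The comparison, the 54 gene lists and the tests were chosen with earlier results of these data known, and the lists are described without a set test. Of 1260 list entries 1247 matched by symbol and 9 by an older symbol. Named genes are the 12 largest rises and falls among called genes at or above the median level, up to 4 called or otherwise 2 uncalled members per list, the called differences between CCl4 and oil, the 6 most opposite genes per direction between diets, and 18 followed genes. Col1a2, Col4a1, Col4a2, Nid1, Lum, Cd9, Cyp2c50 and Cyp2c44 fall outside this rule and were named after their values were seen, to complete their lists. The rule's values for 1 gene are not reported here. Gene coordinates are from GENCODE M21 (GRCm38) and promoters from RefSeq.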

Additional observations from a re-analysis of the deposited data

Results flagged for a closer look

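For 7 genes the change with duration under CCl4 differed from that under oil by the limma test of the difference. CCl4 minus oil was -2.195 for Serpina1e, -2.135 for Cyp2c54, -2.024 for 2810007J24Rik, -1.382 for Ces3b and -1.283 for Cyp2c37. It was 1.45 for Cyp4a14 and 2.296 for Lamc3. All 7 had the same sign of change in both diets under CCl4. All 7 were also called under CCl4, and such a call required the same sign.

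For 12 genes the CCl4 change ran in opposite directions on the 2 diets, and this difference was not tested. The change on normal diet minus that on Western diet was 5.154 for H19, 3.348 for Zbtb16, 1.911 for Lyve1, 1.442 for the oxysterol hydroxylase gene Cyp39a1, 1.369 for the interleukin-1 receptor gene Il1r1 and 1.188 for the endothelial receptor gene Gpr182. It was -2.684 for Oat, -2.103 for Cyp2a5, -1.407 for Lhpp, -1.319 for Nav2, -1.253 for the hepatocyte activin gene Inhbe and -1.131 for Slc1a2. They were selected as the 6 most opposite in each order, so the sizes follow from the choice.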

How the results depend on the processing

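The count of 212 genes under CCl4 became 0 without the filter on low values (2526 at an unadjusted p under 0.05), 122 with a minimum value of 10, 38 without the variance trend, 3 with only CCl4 pools, 0 with all 10 libraries (533 unadjusted), 1 without the diet term and 341 in DESeq2. Leaving out 1 pool gave 3 to 746. A pseudocount of 0.1 gave 175 genes, of which 83 rose and 92 fell, quantile scaling 221, median-ratio scaling 216 and edgeR 181. Under oil the count of 0 became 101 with only oil pools and 9 in DESeq2, and 0 to 107 with 1 pool left out. The difference between CCl4 and oil, 7 genes, became 0 without the filter (1741 unadjusted), 3 with a minimum of 10, 0 without the trend (1394), 0 with all 10 libraries (265), 0 without the diet term (633), 3 in edgeR and 70 in DESeq2, and 0 to 378 with 1 pool left out. The cause was not tested. Of the 76 named genes called, 3 were past the threshold whichever pool was left out, and none reversed in any alternative run. A reversal could not happen where pools were left out or only the filter, the trend or the terms changed. Those limma runs return the same mean change or that of 1 diet. The fit already pairs 12 with 24 weeks by diet, and no further pairing was possible with 1 pool per diet, treatment and duration. Genes with few reads, such as Hsd3b5 with 1 read in 1 pool, are limited by depth.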
